A study of Mus musculus with 6 samples.

Results

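Interferon gamma (IFN-gamma, gene Ifng) and the chemokine genes Ccl3, Ccl4, Ccl5 and Xcl1 were taken as the secreted effector products of natural killer (NK) cells other than their cytotoxic granules. The genes were chosen by symbol, and all 5 were found among the 11717 genes of the deposited table. The table holds RNA sequencing of NK cells purified from spleens of C57BL/6 mice. It has 3 libraries from mice labelled IL-15Tg WT (WT below) and 3 from mice labelled IL-15Tg-Xbp1s cKO (cKO below). Both groups carried the IL-15 transgene, so cells of either genotype came from animals with excess IL-15, a cytokine that NK cells need to survive. The cKO is a conditional knockout directed at Xbp1s, the spliced form of a transcription factor of the unfolded protein response. The promoter of the transgene, the Cre line, the age of the mice and any pooling of animals are not named in the labels used here.

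NK cells are lymphocytes of the innate immune system that kill virus-infected and tumour cells and release IFN-gamma early in an infection. IFN-gamma binds a receptor made of IFNGR1 and IFNGR2 and acts through the kinases JAK1 and JAK2 to arm macrophages and raise antigen presentation. CCL3, CCL4 and CCL5 draw in myeloid cells and T cells, while XCL1 binds XCR1 on a subset of dendritic cells. Resting NK cells hold a store of Ifng and chemokine transcripts, and stimulation raises Ifng, Ccl3, Ccl4 and Xcl1 within hours.

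None of the 5 genes differed between the genotypes by more than the spread between libraries. The mean of Ifng was 38.5 ± 8.98 CPM in WT against 38.2 ± 8.54 CPM in cKO (SD over 3 libraries each), where CPM scales each library to 1000000 reads over the listed genes. Xcl1 had the largest fitted difference of the 5, -20.5% in cKO, and it did not pass the test. Ifng, Ccl3, Ccl4 and Xcl1 were each highest in library 3 of WT and in library 3 of cKO. Ccl5, by far the most abundant of the 5, was highest in neither.

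**Figure D1:**
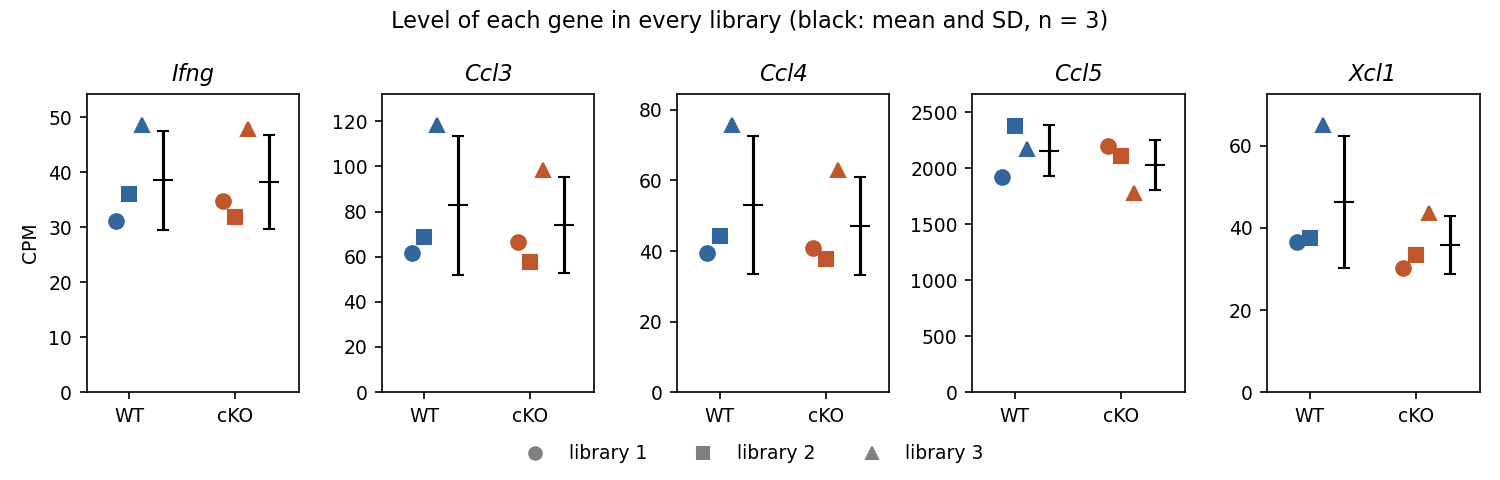
Level of each gene in CPM (vertical axis, from 0) in every library of the WT and cKO groups; each marker is 1 library and the black bars give the mean and SD of 3 libraries. Ifng, Ccl3, Ccl4 and Xcl1 had their highest value in library 3 of each group, and Ccl5 in WT library 2 and cKO library 1.

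The 6 libraries held between 26297292 and 29366756 reads over the listed genes, and 1 read was worth 0.0341 to 0.038 CPM. Xbp1, the targeted gene, served as the check of the labels and measured 42.9, 61.4 and 63.5 CPM across the WT libraries (1 to 3) and 35.1, 33.4 and 39.7 CPM across the cKO libraries. For Xbp1 every cKO library lay below every WT library (exact permutation p = 0.1, two-sided, the smallest that 3 against 3 libraries allow), and its values do not separate spliced from unspliced transcripts. Of 15 NK cell markers, 14 had a mean of at least 100 CPM in both groups, and the summed level of all 15 was 11882 to 13358 CPM in WT and 10681 to 12077 CPM in cKO. The labels do not tie libraries of 1 group to different animals, and p-values therefore measure only the spread between these libraries, which may be technical.

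Ifng (ENSMUSG00000055170.4, plus strand of chromosome 10, 118441046 to 118445892, build mm10) measured 31.1, 36.0 and 48.5 CPM across WT libraries 1 to 3. In cKO libraries 1 to 3 it measured 34.8, 31.9 and 47.9 CPM. The groups overlapped over nearly their whole range, with library 3 the highest in each. The log2 fold change of cKO against WT was -0.01 on the log2(CPM + 0.5) scale (95% confidence interval -0.50 to 0.48; limma, adjusted p = 1.0; exact permutation p = 0.9, two-sided). The interval leaves room for a level 29.4% lower or 39.6% higher in cKO. The sign turned without WT library 3 (0.17), cKO library 1 (0.044) or cKO library 2 (0.11) and when libraries were scaled to NK cell markers (0.11). That scaling raised the fitted value of every gene, because the markers averaged lower in cKO.

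Part of the Ifng locus is shared with another listed gene. Gm49751, a single-exon transcript awaiting experimental support in the annotation, lies on the same strand and covers 336 of the 1295 exon bases of Ifng (25.9%), the middle exons of the cytokine among them. It measured 40.0, 45.02 and 57.5 CPM across the WT libraries (1 to 3) and 44.0, 36.5 and 61.0 CPM across the cKO libraries. Library 3 was the highest in each group, as for Ifng. Reads that fall where both genes have exons, or in Ifng introns, could not be told apart by gene, so the values of Ifng may rest on only part of its exons.

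Ccl3 (ENSMUSG00000000982.5, minus strand of chromosome 11, 83647844 to 83649355) encodes macrophage inflammatory protein 1-alpha, a ligand of the receptor CCR1. It measured 61.6, 68.6 and 118 CPM across the WT libraries (1 to 3) and 66.5, 57.7 and 98.2 CPM across the cKO libraries. WT library 3 stood above all others and cKO library 3 above the 4 remaining ones, and the groups overlapped. The means were 82.7 ± 30.8 CPM for WT against 74.1 ± 21.3 CPM for cKO (SD, n = 3 each), or -0.13 on the log2 scale (95% confidence interval -0.82 to 0.56; limma, adjusted p = 1.0; exact permutation p = 0.6). The sign of this difference rested on single libraries: without WT library 3 it was 0.15, and without cKO library 2 it was 0.027.

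Ccl4 (ENSMUSG00000018930.3, plus strand of chromosome 11, 83662584 to 83664683), the neighbour of Ccl3, encodes macrophage inflammatory protein 1-beta, a chemokine that attracts myeloid cells and T cells. It measured 39.4, 44.4 and 75.6 CPM across the WT libraries (1 to 3) and 40.8, 37.6 and 63.1 CPM across the cKO libraries. The order of the libraries was the same as for Ccl3, with library 3 on top in each group. The means were 53.1 ± 19.6 and 47.2 ± 13.9 CPM (SD, n = 3 each), and cKO minus WT was -0.15 on the log2 scale (95% confidence interval -0.84 to 0.54; limma, adjusted p = 1.0; exact permutation p = 0.6). Without WT library 3 it was 0.13.

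Xcl1 (ENSMUSG00000026573.7, minus strand of chromosome 1, 164931644 to 164935527) encodes lymphotactin, a chemokine made by NK cells and activated T cells. It measured 36.5, 37.5 and 65.0 CPM across the WT libraries (1 to 3) and 30.3, 33.5 and 43.7 CPM across the cKO libraries. cKO libraries 1 and 2 lay below every WT library, while cKO library 3 lay above WT libraries 1 and 2. The means were 46.3 ± 16.2 CPM for WT against 35.8 ± 7.02 CPM for cKO (SD, n = 3 each). On the log2 scale cKO minus WT was -0.33 (95% confidence interval -0.92 to 0.26; limma, adjusted p = 1.0; exact permutation p = 0.4). Its sign stayed negative whichever library was left out, between -0.48 and -0.063, the smallest size being that without WT library 3. An exon of Gm20743, a noncoding gene on the opposite strand, covers 98 of the 523 exon bases of Xcl1 (18.7%), and strand use in counting is not given in the sources used here.

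Ccl5 (ENSMUSG00000035042.2, minus strand of chromosome 11, 83525778 to 83530518) encodes RANTES, which memory-type lymphocytes and NK cells keep ready in store. It measured 1924, 2374 and 2169 CPM across the WT libraries (1 to 3) and 2199, 2105 and 1779 CPM across the cKO libraries. The groups overlapped, with the lowest value in cKO library 3. The means were 2155 ± 225 CPM for WT against 2028 ± 221 CPM for cKO (SD, n = 3 each), or -0.09 on the log2 scale (95% confidence interval -0.37 to 0.19; limma, adjusted p = 1.0; exact permutation p = 0.6). The NK cell markers, too, had their lowest summed level in cKO library 3, at 10681 CPM. When each library was scaled to these markers, the log2 fold change of Ccl5 was 0.029, and without cKO library 3 it was 0.0026.

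**Figure D2:**
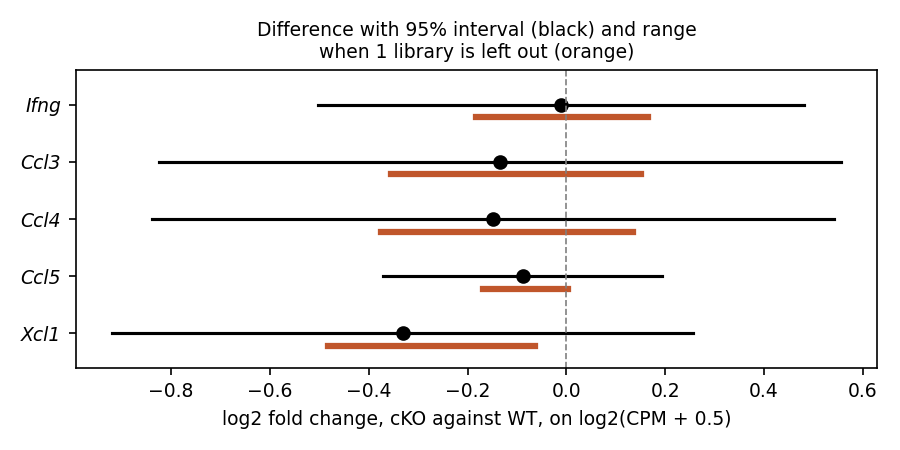
Log2 fold change of cKO against WT (horizontal axis) for each gene, with its 95% confidence interval in black and, in orange, the lowest and highest value when 1 library was left out. Every black interval crosses 0, and only that of Xcl1 keeps one sign in orange, from -0.48 to -0.063.

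Of the 11343 genes tested, limma called 0 (0%) at an adjusted p under 0.05, so the 5 genes were not unusual in passing no test. At an unadjusted p under 0.05 it listed 133 genes (1.17%), with 0 of the 5 among them. The edgeR quasi-likelihood test on reads recovered from the table called 0 and listed 145 without adjustment (1.28%). DESeq2 called 6 (0.0529%), and listed 155 without adjustment (1.37%). Neither listed any of the 5 genes. Where no gene differs, a share of 0.05 of the genes is expected at an unadjusted p under 0.05. Each of these unadjusted shares was smaller, so not passing is weak ground for calling a gene unchanged. The cause of the small shares was not tested. All 5 fitted values were below 0, against 44.5% of all genes tested, but the 5 share libraries and 4 of them share their highest library in each group. Of the 15 NK cell markers 14 were below 0 too, with a median log2 fold change of -0.12 against -0.13 for the 5 genes. In 0 of the 5 did all cKO libraries lie below all WT libraries, which 1.77% of the genes tested did, and in 0 did all lie above, against 2.55%.

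The levels of the 5 genes were compared per kilobase of exon, with the exon lengths of the deposited table. In WT, Ccl5 was at 2245 ± 235 CPM per kb, Ccl3 at 108 ± 40.2, Xcl1 at 88.6 ± 30.9, Ccl4 at 80.5 ± 29.7 and Ifng at 29.8 ± 6.93 CPM per kb (SD, n = 3 each). In cKO the order was Ccl5 at 2112 ± 230, Ccl3 at 96.8 ± 27.8, Ccl4 at 71.5 ± 21.0, Xcl1 at 68.5 ± 13.4 and Ifng at 29.5 ± 6.60 CPM per kb. Ccl4 and Xcl1, neighbours in both orders, did not differ beyond their spread, and their order turned between the groups. Ccl5 lay above Ccl3 in every library without overlap. Ccl3 overlapped its lower neighbours Xcl1 and Ccl4 over libraries, although within each single library Ccl3 per kb was 1.32 to 1.40 times Ccl4. The exon length of Ccl5 in the table, 960 bases, exceeds its coding transcript, as the annotation also holds a transcript of Ccl5 with a retained intron. Per kilobase of the 532-base coding transcript, Ccl5 was at 4052 ± 423 CPM per kb in WT and 3811 ± 415 CPM per kb in cKO. Ccl5 supplied between 87.6% and 92.9% of the reads of the 5 genes, and it ranked 18th by mean CPM among all listed genes.

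The spread of Ifng, Ccl3, Ccl4 and Xcl1 between libraries of a group was larger than that of most genes. The SD within groups of log2(CPM + 0.5) was 0.31 for Ifng, 0.45 for Ccl3, 0.45 for Ccl4 and 0.38 for Xcl1, against a median of 0.12 over all genes tested. Ccl3 had a larger SD than 94.2% of the genes tested, and Ifng, the least variable of the 4, than 88.2%. Ccl5, at 0.16, lay above 65.1%. Counting alone accounts for a coefficient of variation of 2.15% to 3.07% in the 4 genes, while the biological coefficient of variation estimated by edgeR was 18.9% for Ifng, 22.3% for Xcl1, 25.4% for Ccl3 and 25.8% for Ccl4. The difference between the group means held 0.0429% of the variance of Ifng over the 6 libraries, 3.21% of that of Ccl3, 3.9% of that of Ccl4, 10.7% of that of Ccl5 and 22.2% of that of Xcl1, where the median gene had 5.59%. Such a share also arises without any effect of genotype. The largest, that of Xcl1, went with an exact permutation p of 0.4 and is not read as an effect.

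Ratios between genes of the same library do not depend on how libraries are scaled. The ratio of Ccl3 to Ccl4 in CPM was 1.56, 1.54 and 1.56 across WT libraries 1 to 3 and 1.63, 1.53 and 1.56 across cKO libraries 1 to 3. These neighbours thus held nearly the same ratio in every library while each varied up to 1.92-fold within a group. Each was also the nearest profile of the other among all genes tested, at a root mean square difference of 0.028 between their centred log2 values over the 6 libraries, where the median gene was at 0.39 from Ccl3. No 50-base window of the Ccl3 or Ccl4 transcripts occurs in transcripts of another gene of the annotation, so 50-base reads that match exactly can be told apart between them. The ratio of Xcl1 to Ifng was 1.17, 1.04 and 1.34 in WT and 0.87, 1.05 and 0.912 in cKO, and the groups overlapped. Of 4 ratios compared (Ccl3 to Ccl4, Ccl3 to Ifng, Xcl1 to Ifng and Xcl1 to Ccl4), that of Xcl1 to Ifng had the smallest p (exact permutation p = 0.2, two-sided; Benjamini-Hochberg over the 4, 0.6).

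**Figure D3:**
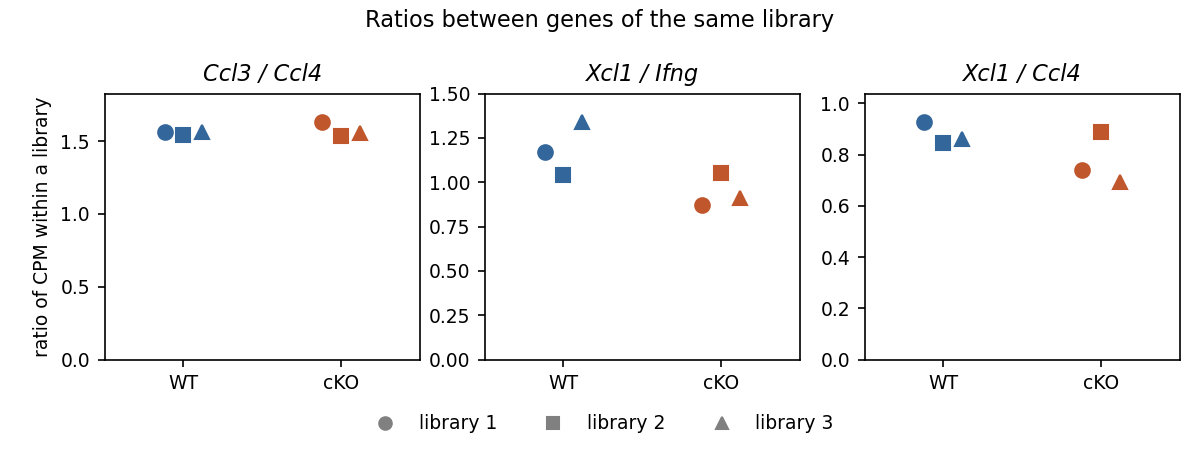
Ratio of CPM between 2 genes of the same library (vertical axes, from 0) in WT and cKO; each marker is 1 library. The Ccl3 to Ccl4 ratio stays between 1.53 and 1.63, while the Xcl1 to Ifng ratio runs from 0.87 to 1.34 with overlapping groups.

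Since Ifng, Ccl3 and Xcl1 were each highest in library 3 of both groups, the 250 bases before their starts are shown, 5′ to 3′ on the strand of the gene, from RefSeq (GRCm38.p6, the build of mm10). They lie at chr10:118440796-118441045 (plus), chr11:83649379-83649628 (minus) and chr1:164935523-164935772 (minus). Capitals mark matches, on either strand, to the core letters of NFAT sites (GGAAA), of T-box sites (GGTGTGA) and of sites for XBP1 and CREB-type factors (ACGT).
Ifng: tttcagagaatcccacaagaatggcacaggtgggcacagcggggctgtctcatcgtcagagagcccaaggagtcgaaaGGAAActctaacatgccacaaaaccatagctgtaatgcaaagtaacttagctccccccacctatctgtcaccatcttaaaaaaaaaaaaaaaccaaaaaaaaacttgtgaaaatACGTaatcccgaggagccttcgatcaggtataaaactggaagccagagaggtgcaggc
Ccl3: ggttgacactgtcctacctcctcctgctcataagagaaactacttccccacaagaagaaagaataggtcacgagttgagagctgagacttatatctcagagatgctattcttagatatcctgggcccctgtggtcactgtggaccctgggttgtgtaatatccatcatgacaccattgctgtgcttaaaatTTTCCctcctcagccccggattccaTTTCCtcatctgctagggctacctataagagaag
Xcl1: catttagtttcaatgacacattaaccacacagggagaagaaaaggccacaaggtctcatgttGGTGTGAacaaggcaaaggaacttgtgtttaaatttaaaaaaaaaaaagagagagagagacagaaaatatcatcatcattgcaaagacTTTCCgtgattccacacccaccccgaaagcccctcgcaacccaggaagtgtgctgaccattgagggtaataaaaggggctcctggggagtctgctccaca
NFAT transmits calcium signals from activating receptors, and T-box factors include T-bet. GGAAA was found 1 time in the Ifng window, 2 times in that of Ccl3 and 1 time in that of Xcl1, and 55.6% of 32851 promoter windows of this length hold it. ACGT was found in the Ifng window, at 58 bases before the start, and in 26.9% of all windows. GGTGTGA was found in the Xcl1 window, at 188 bases before the start, and in 3.33% of all windows. Neither the AP-1 letters TGANTCA, found in 6.75% of all windows, nor the longer XBP1 letters TGACGTG, found in 1.65% and containing ACGT, matched in any of the 3 windows. Ccl4, also highest in library 3 of both groups, and Ccl5 had no entry in the promoter reference and are named only. A match of letters describes the sequence and does not show binding.

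The genes nearest in profile to each of the 5 were taken from all genes tested. For Ifng the 3 nearest were Gm44164, Junb and Gm37334, at root mean square differences of 0.032, 0.034 and 0.046. Junb, an AP-1 subunit induced on activation, measured 121, 138 and 188 CPM across the WT libraries (1 to 3) and 139, 127 and 178 CPM across the cKO libraries. For Ccl3 and Ccl4 the next after each other was Pde3b, a cyclic nucleotide phosphodiesterase, at 0.051 and 0.057. The third was P4ha1, a collagen prolyl hydroxylase, for Ccl3 (0.063) and Rhob, a small GTPase, for Ccl4 (0.072). For Xcl1 they were Nr4a3 (0.083) and Egr2 (0.094), both transcription factors of the immediate early response, and Tnfsf14 (0.099), the gene of the cytokine LIGHT. Egr2 measured 7.01, 8.05 and 12.2 CPM across the WT libraries (1 to 3) and 6.64, 6.57 and 8.21 CPM across the cKO libraries. Ccl5 had other neighbours: Selenon, an ER selenoprotein, at 0.021, Fhl2 at 0.042 and Cd247, the CD3 zeta chain, at 0.044.

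Like Ifng, Ccl3, Ccl4 and Xcl1, most activation and immediate early genes were highest in library 3 of both groups. Of 20 such genes, all tested, 19 were highest in library 3 of both groups, where 25.9% of all genes tested were, and 26.6% of those with a mean of at least 10 CPM. The exception was Myc, highest in WT library 1 and cKO library 2. Fos, an AP-1 subunit, measured 12.4, 15.5 and 30.1 CPM across the WT libraries (1 to 3) and 19.5, 9.45 and 40.3 CPM across the cKO libraries. Nr4a1, an orphan nuclear receptor induced by antigen and NK receptor signals, measured 20.7, 24.2 and 41.5 CPM across the WT libraries (1 to 3) and 30.4, 20.4 and 39.8 CPM across the cKO libraries. Both genes were thus highest in library 3 of each group. Whether what these genes shared in library 3 had a part in the levels of the 4 genes was not tested. Between the genotypes, 0 of the 20 passed the limma test, 11 fitted values were higher and 9 lower in cKO, and their median log2 fold change was 0.012. The members of smallest p were Nr4a3, with 33.9 ± 10.03 CPM in WT against 26.7 ± 3.10 CPM in cKO, and Egr2, at 9.10 ± 2.77 and 7.14 ± 0.930 CPM (SD, n = 3 each; limma, adjusted p = 1.0 for both).

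**Figure D4:**
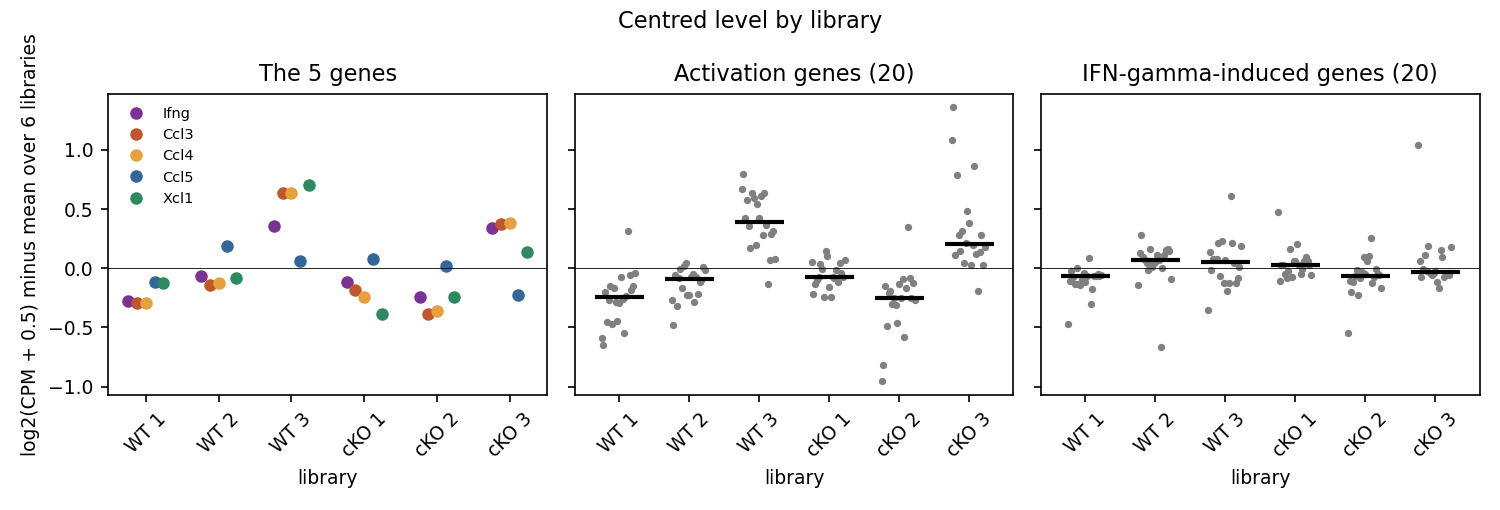
Log2(CPM + 0.5) of each gene minus its mean over the 6 libraries (vertical axis), by library, for the 5 genes, for 20 activation genes and for 20 genes induced by IFN-gamma; each point is 1 gene in 1 library and black bars are medians. The activation genes stand highest in library 3 of both groups (19 of 20), like Ifng, Ccl3, Ccl4 and Xcl1, while 5 of the 20 IFN-gamma-induced genes do.

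Marker levels of other cells were set beside these values. T cells and NK cells both make IFN-gamma, CCL5 and XCL1. The mean centred log2 level of 14 T cell markers was lowest in WT library 3, at -0.85, which had the highest values of Ifng, Ccl3, Ccl4 and Xcl1. Cd3e, a chain of the T cell receptor complex, was there at 1.25 CPM against 9.13 and 16.4 CPM in WT libraries 1 and 2. The summed T cell list did not follow this, with 362, 467 and 383 CPM across WT libraries 1 to 3 and 327 to 427 CPM in cKO. Its most abundant members, Trbc1 (124, 132 and 156 CPM) and Lef1 (87.3, 114.8 and 118 CPM), were highest in library 3 of WT, and both were so in cKO as well. Of 13 monocyte and macrophage markers 6 were listed, summing to 195 to 263 CPM in WT and 236 to 446 CPM in cKO, with the lowest sum in WT library 3. The 17 B cell markers were likewise lowest in WT library 3, at a summed 1017 CPM, and reached 2877 CPM in cKO library 3. All 17, and all 6 listed monocyte and macrophage markers, had a higher fitted value in cKO, and 0 of either list passed in limma. Basophil and mast cell markers, cells that also make CCL3 and CCL4, were listed for 6 of 9 and summed to 99.7 to 180 CPM in WT and 114 to 189 CPM in cKO. Most of each sum was Kit, at 81.1 to 156 CPM in WT and 90.5 to 159 CPM in cKO, so the sum mainly follows this gene. Dendritic cell markers summed to 823 to 970 and 787 to 826 CPM, mostly Itgax, the 1 of 8 with a lower fitted value in cKO, while 7 were higher (median log2 fold change 0.22). Summed levels were, for neutrophil markers, 107 to 141 and 124 to 171 CPM and, for ILC1 markers, 67.9 to 77.3 and 64.6 to 84.0 CPM in WT and cKO. None of the listed markers was at 0 in all libraries, but markers that are not listed have no value here. In bulk RNA, fewer cells of a type and less RNA per cell cannot be told apart.

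The receptor and signalling genes of IFN-gamma gave no call either, with 0 of 9 passing in limma, 7 fitted values lower and 2 higher in cKO, and a median log2 fold change of -0.037, against 0.0087 over all genes tested. Ifngr2, the signal-transducing receptor chain, measured 8.38, 10.8 and 6.96 CPM across the WT libraries (1 to 3) and 15.8, 9.59 and 15.1 CPM across the cKO libraries. cKO library 2 lay below WT library 2, so the groups overlapped. The difference of 0.59 on the log2 scale (95% confidence interval 0.03 to 1.15; unadjusted p = 0.0405 and adjusted p = 1.0 in limma) was the only one at an unadjusted p under 0.05 among the genes of the pathway lists described here. Jak1, the kinase on the other receptor chain, averaged 1870 ± 79.1 CPM in WT against 1768 ± 77.8 CPM in cKO (SD, n = 3 each). Of the 9 genes, 6 (66.7%) were highest in library 3 of both groups, against 25.9% of all genes tested.

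Among genes that IFN-gamma induces, the share with their highest level in library 3 of both groups was that of the background. Of 26 such genes 20 were listed and tested, and 5 of them (25%) were highest in library 3 of both groups, near the 25.9% of all genes tested. Their mean centred log2 level was -0.10, 0.037 and 0.043 in WT libraries 1 to 3 and 0.042, -0.071 and 0.053 in cKO libraries 1 to 3. Averaging over 20 genes narrows a range, so it is not compared with that of the single gene Ifng. The cKO means include the high values of Ciita in cKO libraries 1 and 3, given below. Their order in cKO is therefore not read as a trait of the whole list. In the comparison of the genotypes 0 of 20 passed in limma, with 14 fitted values lower and 6 higher and a median log2 fold change of -0.025. Gbp7, a guanylate-binding GTPase of cell-autonomous defence, averaged 146 ± 4.23 CPM in WT against 137 ± 3.48 CPM in cKO. Ciita, the coactivator of MHC class II genes and also expressed by B cells, measured 29.5, 37.2 and 31.98 CPM across the WT libraries (1 to 3) and 57.1, 27.9 and 85.0 CPM across the cKO libraries (limma, adjusted p = 1.0 for both). cKO libraries 1 and 3, high for Ciita, also had the highest summed B cell markers, at 2778 and 2877 CPM, and their part in the Ciita value was not tested.

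**Figure D5:**
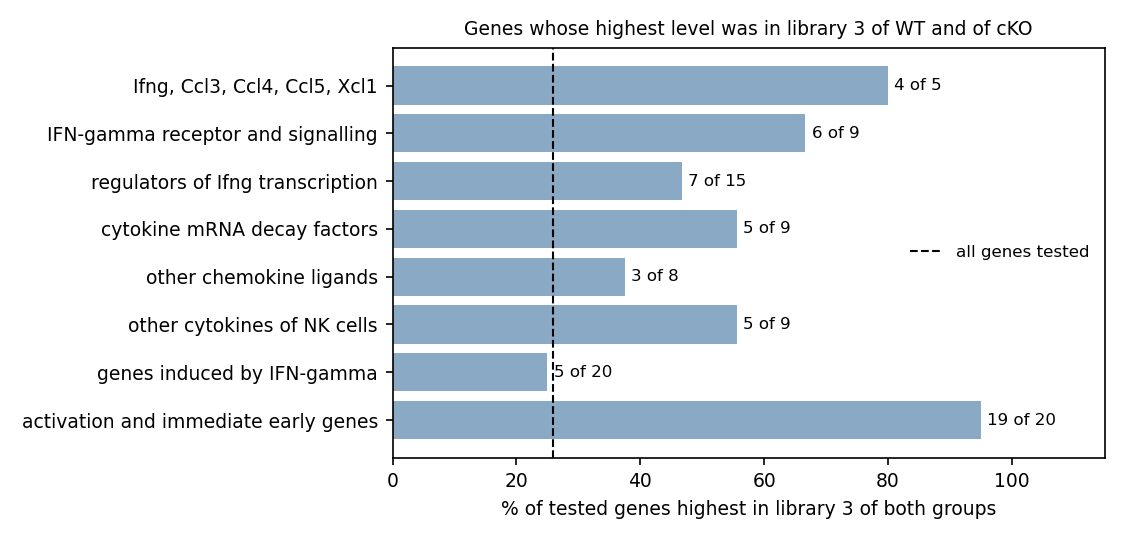
Share of the tested genes of 8 gene sets, the 5 genes among them, whose highest level lay in library 3 of WT and also in library 3 of cKO (horizontal axis, percent), with the counts beside the bars and the share over all genes tested, 25.9%, as a dashed line. Activation genes stand at 19 of 20 and IFN-gamma-induced genes at 5 of 20.

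Regulators of Ifng transcription, which include T-bet (Tbx21), Eomes, STAT4 and the receptors of IL-12 and IL-18, gave 0 calls among 15 genes in limma, with 10 fitted values lower and 5 higher and a median of -0.035. Of the 15 regulators, 7 (46.7%) were highest in library 3 of both groups, against 25.9% of all genes tested. The other 8 were not, Eomes and Il18r1 among them. Tbx21 measured 374, 438 and 524 CPM across the WT libraries (1 to 3) and 394, 377 and 463 CPM across the cKO libraries, highest in library 3 of each group like Ifng. Stat4, which carries the IL-12 signal, measured 179, 184 and 227 CPM across the WT libraries (1 to 3) and 172, 166 and 207 CPM across the cKO libraries, again highest in library 3. The regulators of smallest p were Rel, an NF-kappa-B subunit, at 80.9 ± 3.75 and 88.9 ± 12.9 CPM, and Il12rb1, a chain of the IL-12 receptor, at 53.3 ± 8.43 and 48.5 ± 0.632 CPM in WT and cKO (SD, n = 3 each; limma, adjusted p = 1.0 for both). Tbx21 and Stat4 are named here after their values were seen, as are Eomes, Il18r1, Fos, Nr4a1, Cd3e, Trbc1, Lef1, Itgax, Kit, Myc and Gm49751. Among 9 factors that control the decay of cytokine mRNAs, 0 passed, 6 fitted values were higher and 3 lower, and the median was 0.0071. Zfp36l1, which binds AU-rich elements, was at 151 ± 4.81 and 164 ± 20.4 CPM, and Elavl1, which stabilises such transcripts, at 135 ± 6.11 and 132 ± 5.62 CPM.

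Ccr1, a receptor of CCL3 and CCL5, was low, averaging 1.59 ± 0.374 CPM in WT against 1.38 ± 0.652 CPM in cKO, and did not pass. Of 33 other chemokine ligands 8 were listed, 0 passed, and 7 fitted values were higher and 1 lower in cKO (median 0.061). Cxcl9, a chemokine that IFN-gamma induces, was at 2.98 ± 1.67 and 3.33 ± 0.404 CPM, and the platelet chemokine gene Ppbp at 99.6 ± 45.2 and 86.4 ± 17.5 CPM. Among 12 other cytokines of NK cells 9 were listed and 0 passed, with 7 fitted values higher and 2 lower (median 0.06). Flt3l, a growth factor of dendritic cells, was at 62.5 ± 3.87 and 57.1 ± 4.80 CPM, and Csf1, the macrophage growth factor, at 3.48 ± 0.455 and 4.16 ± 0.650 CPM (SD, n = 3 each; limma, adjusted p = 1.0 for each gene named here).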

How the data were processed

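RNA of purified splenic NK cells was made into KAPA Hyper Prep libraries and read as single 50-base reads on a HiSeq2500, per the labels' protocols. The submitters' processing notes name HISAT2, HTSeq, DESeq2 and mm10. For settings and strand use, no source used here gives them. The deposited values are called RPKM, but each column sums to 1000000 and holds whole multiples of 1 read (100% within 0.01 reads), so they are CPM over the 11717 listed genes, and the log-scale test was kept. Whole reads were recovered from them. Groups and numbers came from sample titles. The 11343 genes reaching 1 CPM in 3 or more of the 6 libraries entered limma 3.58.1 on the log2(CPM + 0.5) scale (R 4.3.3, intensity trend, genotype as the single term), with Benjamini-Hochberg adjustment over all of them at 0.05, after the procedure was tested on simulated data. Fold changes on this scale understate the change of low genes. Exact permutation tests over libraries (SciPy 1.17.1) cannot go below 0.1. Alternatives were edgeR 4.0.16, DESeq2 1.42.0, pseudocounts, filters, scalings, prior variance, array weights, a block by replicate number and leaving out libraries. Coordinates are from GENCODE M21 by identifier (11709 matched). Named beyond the 5 genes, by rule, were Xbp1, the 3 nearest profiles of each gene and the 2 genes of smallest p in each of 8 lists, of which some are not reported here. The genes and lists were chosen with earlier results of these data known. The confidence intervals are those of limma and rest on the spread between libraries.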

Additional observations from a re-analysis of the deposited data

How the results depend on the processing

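None of the 5 genes passed the threshold under any of 20 alternatives. Scaled to the NK cell markers, which moved the median log2 fold change of all genes to 0.13, the log2 fold change was 0.11 for Ifng and 0.029 for Ccl5, and -0.016 for Ccl3, -0.030 for Ccl4 and -0.21 for Xcl1. With 1 library left out the log2 fold change ran from -0.18 to 0.17 for Ifng, from -0.35 to 0.15 for Ccl3, from -0.37 to 0.13 for Ccl4, from -0.17 to 0.0026 for Ccl5 and from -0.48 to -0.063 for Xcl1. Without library 3 of both groups, added after the data were seen, Ccl5 was at 0.0097 and Xcl1 at -0.21. The number of genes called was 0 whichever library was left out, 1 after scaling to NK cell markers, 6 with array weights (whose estimate did not converge) and 6 in DESeq2. Libraries of the 2 groups were correlated across genes after each gene was centred on its mean within its group. Such centred values add up to 0 within a group, which forces correlations of both signs, so a negative one does not mean opposed expression. The same-numbered libraries correlated at -0.17, -0.51 and 0.48, and only library 3 of each group correlated best with its own number (WT 1 with cKO 2 at 0.59, WT 2 with cKO 1 at 0.65). The labels give these samples a number and do not say whether those of the same number share an animal, day or batch, which the correlations cannot settle. With a replicate block, 0 genes were called, 118 had an unadjusted p under 0.05, and Xcl1 was at -0.33 (unadjusted p = 0.0243, adjusted p = 1.0 in limma). Other named genes whose sign turned were Jak1 (0.017 with quantile normalization, 0.037 scaled to NK cell markers), Elavl1 (0.077) and Gbp7 (0.036) scaled so, and, with libraries left out, Ccr1 (-0.37 to 0.13), Cxcl9 (-0.034 to 0.61) and Ppbp (-0.38 to 0.21, 0.038 without cKO library 1, and 0.089 without library 3 of both groups). Of the activation genes, 17 to 19 stayed highest in library 3 of both groups over 5 alternatives. The cause of these moves was not tested. With 3 libraries a group, the confidence intervals ran from -0.82 to 0.56 for Ccl3 and from -0.84 to 0.54 for Ccl4. Differences within these intervals are not excluded. The intervals are not adjusted for the number of genes tested and do not give the smallest difference that the test would call.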

Other observations

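Myc, Mif and Stat5a are given as genes of the lists whose highest libraries were not those of Ifng. Myc, a driver of growth, measured 124, 85.9 and 90.7 CPM across the WT libraries (1 to 3) and 91.9, 127 and 87.1 CPM across the cKO libraries. Mif, a cytokine made without stimulation by many cells, measured 40.5, 30.1 and 25.1 CPM across the WT libraries (1 to 3) and 30.9, 44.1 and 25.5 CPM across the cKO libraries. Stat5a, which carries the IL-15 signal, measured 98.0, 81.3 and 74.1 CPM across the WT libraries (1 to 3) and 81.0, 97.2 and 73.0 CPM across the cKO libraries. Each of these 3 genes was highest in WT library 1 and cKO library 2 and lowest or near the lowest in library 3 of both groups, and none passed between the genotypes (limma, adjusted p = 1.0 for each). They were chosen after their values were seen.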
